A study of Eriocheir sinensis with 2 samples.

Results

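Unigenes of the *Eriocheir sinensis* (Chinese mitten crab) Y-organ were taken as membrane receptors and ion channels when the text of their best hit in the nr protein database contained any of 18 terms. These terms name G protein coupled receptors, neuropeptides, allatostatin, amine and amino acid transmitter receptors, the potassium, sodium, calcium and chloride channels, transient receptor potential (TRP) channels, and the ryanodine and inositol 1,4,5-trisphosphate (IP3) receptors. The rule found 77 of the 47966 unigenes with reads. Y-organs came from crabs with a body weight of 5 to 6 g, 30 per group, and each group gave 1 library. Library C0 came from untreated crabs, and C1 from crabs whose eyestalk had been removed 48 h before. The methods name no sham operation, so eyestalk ablation and the wound of the operation cannot be told apart. A unigene is an assembled transcript fragment, and several unigenes can belong to 1 gene. By their annotation, 68 members name a receptor or a channel, while 9 carry a term of the rule without being one, such as receptor kinases, a transporter and peptide precursors.

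The Y-organ is the paired gland that makes ecdysteroids, the molting hormones. Molt-inhibiting hormone, a neuropeptide released from the eyestalk, restrains it through cyclic nucleotides in the gland cell, and calcium entering or released inside the cell is known to act on hormone synthesis as well. G protein coupled receptors pass a signal from outside the cell to G proteins, whereas ionotropic receptors and ion channels let ions through the membrane directly. IP3 receptors open in the endoplasmic reticulum when phospholipase C is active, and ryanodine receptors release calcium in muscle and nerve.

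The main difference lay in G protein coupled receptors without a known ligand in the annotation. Reads of these 10 unigenes summed to 408 in C0 and to 194 in C1, and 2 of them fell. The IP3 receptor, by contrast, had 173 reads on 13 unigenes in C0 and 181 in C1. Receptors for transmitters and peptides and the potassium, calcium and TRP channels were near the limit of detection in both libraries. The terms serotonin, 5-hydroxytryptamine and sodium channel matched 0 unigenes with reads.

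Most members had very few reads. The sums over all 77 members were 1239 reads in C0 and 943 in C1, or 0.0298% and 0.0251% of the unigene reads. In units of 1000 reads, the libraries held 4152.5 (C0) and 3750.8 (C1) of these. The median member had 3 reads in each library, while the median of all unigenes was 8 in each. In RPKM, the authors' reads per kilobase of unigene scaled to the library total, the median member level was 1.59 in C0 and 1.35 in C1, beside 5.85 and 6.33 over all unigenes. In each library 18 of the 77 members lay above the median RPKM of all unigenes. Reads of both libraries fell on 50 members, of C0 alone on 16 and of C1 alone on 11. The members found in a single library had at most 4 reads there (C0) or 3 (C1). Where a library had 0 reads of a unigene, its share could still reach 7.22e-05% (C0) or 8e-05% (C1), the share of 3 counts, so a difference in these members was not detectable at this depth.

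The reads of each unigene were compared between the libraries with an exact two-sided binomial test, adjusted over all 47966 unigenes by the Benjamini-Hochberg method. A unigene was called differentially expressed (DEU) at an adjusted p up to 0.001 if its log2 ratio of C1 over C0, with 0.5 read added per library, also exceeded 1 in size. With 1 library per group no spread between samples is known. A p-value here speaks of the pair of libraries alone, not of the conditions, and the 95% intervals cover counting error only. A unigene needed at least 14 reads in both libraries together to be called even with all of them in C1, and 26 of the 77 members had as many. With all of its reads in C0 a unigene needed more than 14. For a level 4-fold lower in C1, the expected split of the reads first passed the p threshold at 46 reads, which 12 members had. For a 2-fold lower level this took 149 reads, which 2 members had, and a call also needs a log2 ratio beyond -1. With fewer reads the expected split did not pass, and a call needed a more uneven one.

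**Figure D1:**
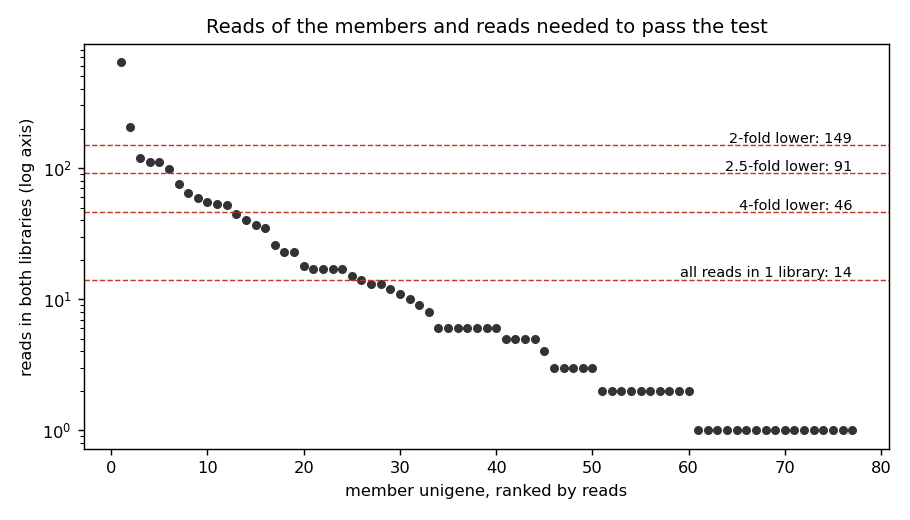
Reads in both libraries together (log axis) of the 77 members, ranked by reads, one point per unigene. Dashed lines give the fewest reads at which an expected split passes the adjusted p threshold. They run from 14 (all reads in C1, more if all are in C0) to 149 (2-fold lower in C1). Only 26 points lie at or above the lowest line and 2 above the highest.

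Among the 77 members, 2 were DEUs and both were lower in C1. Of all unigenes, 1.70% were called lower and 2.32% higher, 4.03% in all. Among the unigenes with at least 14 reads, 3.10% were lower and 4.23% higher (7.33% in all), against 2 and 0 of the 26 members. Among annotated unigenes with as many reads and no ciliate best hit, the shares were 3.82%, 3.69% and 7.50%, so 2 of 26 is near the background. The background split depends on the library size. With the TMM factors of edgeR, which move every log2 ratio by -0.17, 730 unigenes were called higher and 1053 lower, in place of 1115 and 816, and the same 2 members were called. The 95% interval of the log2 ratio lay below 0 for 7 of the 26 members (12.6% of all unigenes with as many reads) and above 0 for 1 (21.9%), on either side for 34.5% of all. With TMM factors these counts were 8 (16.5%) and 1 (16.2%), with 32.7% on either side. The median log2 ratio of the 31 members with at least 10 reads was -0.01. Over all unigenes with at least 10 reads it was 0.15, but over the annotated ones it was -0.07. All members are annotated, so by this median they were not lower than unigenes of their kind. The interval shares were not taken over annotated unigenes alone. Of the 8 members whose interval did not hold 0, 5 were G protein coupled receptors, a group that held 9 of the 26 members. Several other groups had no member with as many reads, so they could not add to this count.

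**Figure D2:**
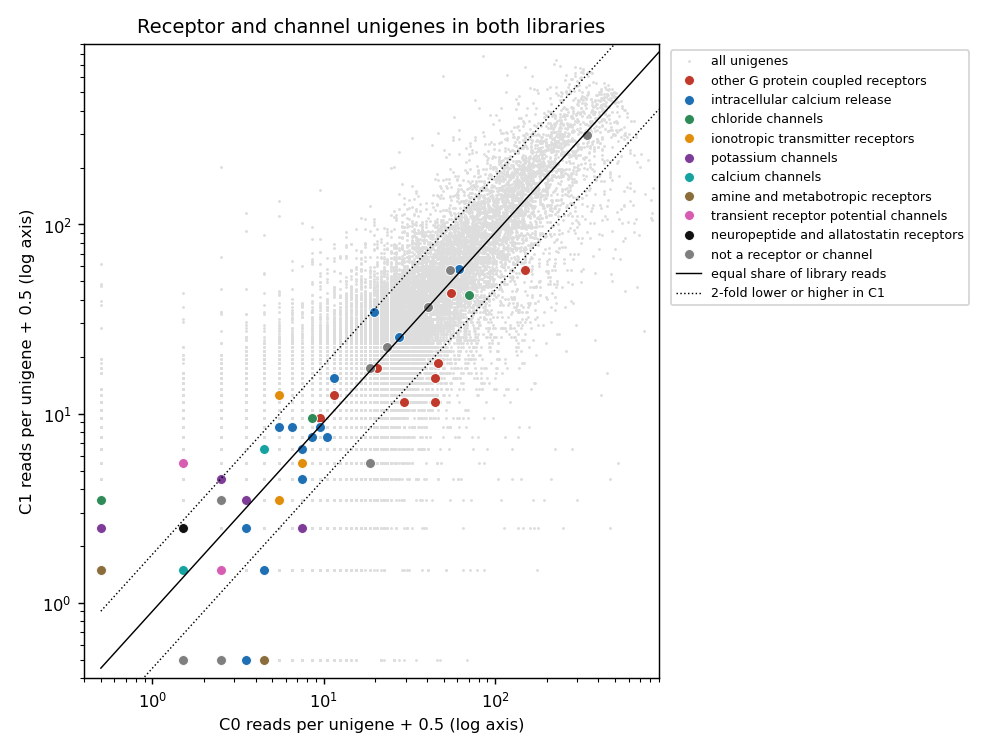
Reads per unigene in C0 (x axis) and C1 (y axis), both log axes with 0.5 read added, for all unigenes with up to 1000 reads in both libraries (grey) and the 77 members (coloured by group, points with equal reads overlap). The solid line marks equal shares of the library reads and the dotted lines a 2-fold difference. Among members with over 40 C0 reads, 4 G protein coupled receptors (red) lie below the lower dotted line.

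The first DEU was Unigene14916_A0A, a fragment of 335 bp whose best hit is a G-protein coupled receptor of the mosquito *Anopheles gambiae*, with no ligand given. It had 149 C0 reads and 57 C1 reads, the most of any receptor or channel of the rule in C0. Its level was 107 RPKM in C0 and 45.4 in C1. It fell (log2 ratio -1.23, 95% limits -1.68 and -0.80, adjusted p = 2.27e-07, exact binomial test). This put it at percentile 98.1 of the RPKM of all unigenes in C0 and at percentile 93.2 in C1. Its reads covered 94.3% of the fragment in C0 and 86.0% in C1.

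The second DEU was Unigene6976_A0A (385 bp), which resembles Mth2 of a bumblebee. Mth2 belongs to the methuselah receptors, secretin-like receptors that in *Drosophila* are known for effects on life span and stress resistance. The fragment had 44 C0 reads and 11 C1 reads (27.5 and 7.62 RPKM). It fell (log2 ratio -1.81, 95% limits -2.79 and -0.92, adjusted p = 6.09e-04, exact binomial test). The share of the fragment under reads was 95.1% in C0 and 68.1% in C1. In bulk RNA of this kind, fewer cells of a type and less RNA per cell cannot be told apart.

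The other 3 methuselah-like unigenes did not pass the test, and they differed among themselves. Unigene29457_A0A (787 bp) had 46 and 18 reads (log2 ratio -1.18, -1.98 to -0.43, adjusted p = 0.0246, exact binomial test). Unigene49975_A0A (617 bp) had 55 and 43 reads, and its interval of -0.78 to 0.36 holds 0. Unigene51515_A0A, which resembles GPRmth1 of the body louse, had 11 and 12 reads (-0.88 to 1.42). The interval of Unigene6976_A0A, at -2.79 to -0.92, lies wholly below the log2 ratio of the 4 summed, -0.74, while the other 3 intervals hold it. Their 4 best hits are different proteins, so whether they are parts of 1 transcript or several receptors is not known from the files.

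Another 3 unigenes resemble GPR158, a receptor known mainly from the vertebrate brain. Unigene34677_A0A (428 bp) had 44 and 15 reads (log2 ratio -1.37, -2.24 to -0.57, adjusted p = 0.00789, exact binomial test). Unigene48351_A0A (887 bp) had 29 and 11 reads (-2.23 to -0.27, adjusted p = 0.0849, exact binomial test). Unigene42045_A0A (217 bp) had 20 and 17 reads (-1.01 to 0.83). The sum of the 3 was 93 reads in C0 and 43 in C1, and all 3 intervals hold its log2 ratio of -0.96. None of the 3 was a DEU.

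The last members of this group had even counts. Unigene46784_A0A, which matches GPR89 of the mud crab *Scylla paramamosain*, had 9 reads in each library. GPR89 is known in mammals as a Golgi protein that regulates pH and not as a hormone receptor. Unigene32131_A0A, which resembles the adhesion receptor GPR124, had 1 read in each. Over the whole group of 10 unigenes the level of the summed reads was 20.3 RPKM in C0 and 10.7 in C1, the highest in C0 of all groups of receptors and channels. The log2 ratio of the sum was -0.92 (-1.17 to -0.68), and without Unigene14916_A0A it was -0.77. When a biological coefficient of variation of 0.2 was assumed, 0 members were called, and with a log2 threshold of 2 also 0.

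**Figure D3:**
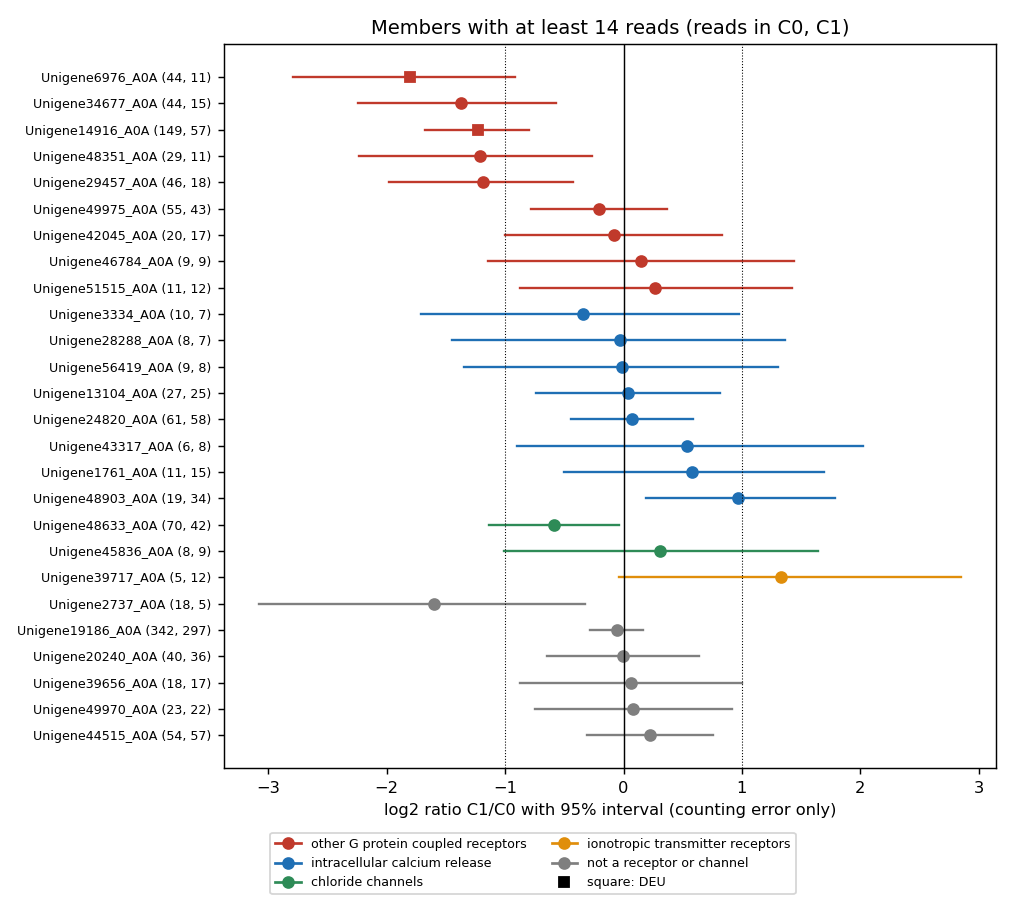
Log2 ratio (C1/C0) with its 95% interval for the 26 members with at least 14 reads, with the reads in C0 and C1 after each name. Squares mark DEUs, colours the groups, and dotted lines a log2 ratio of -1 and 1. The 5 lowest ratios among the G protein coupled receptors (red) have intervals wholly below 0, while the 8 calcium release unigenes (blue) lie around 0, with 1 interval above it.

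Signals of other cells moved between the libraries beside these receptors, and their part in the result was not tested. Each list is given also without its unigene with the most reads where this turned its direction. The Y-organ list is given so too, and both choices were made after the values were seen. The hemocyte list (19 unigenes) had a summed level of 754 RPKM in C0 and 604 in C1, with 2 DEUs, both lower. Among all unigenes with at least 14 reads, 3.10% were called lower, and 14 of this list had as many. Of its 16 unigenes with at least 10 reads, 10 log2 ratios lay below 0 and 6 above. Of the summed 3012 and 1971 reads, 1216 and 669 fell on Unigene19102_A0A, a prophenoloxidase-activating factor. Unigenes with hemocytin in their text had 63 and 62 reads. The muscle list (31 unigenes) had 3297 and 2579 RPKM, with 5 DEUs lower and 1 higher, but the log2 ratio of its summed reads (13641 and 12761) was 0.05 (0.02 to 0.09). Arginine kinase (Unigene19602_A0A), an enzyme that is not restricted to muscle, held 6274 and 8157 of these reads. Without it, the sum was 7367 and 4604 reads (log2 ratio -0.53, -0.58 to -0.48). This sum still holds 1207 and 1423 reads of Unigene19676_A0A, annotated as non-muscle myosin heavy chain. Unigenes with a ciliate best hit (186) had 17552 RPKM in C0 and 5962 in C1, with 100 DEUs lower and 0 higher, and 0 members have a ciliate best hit. The nervous tissue list (16 unigenes) had 73.2 and 116 RPKM, but 113 of its 139 C1 reads fell on Unigene31467_A0A (VAT-1 homolog), a DEU that is not restricted to neurons. Without it, the other 15 unigenes had 63 reads in C0 but 26 in C1 (log2 ratio -1.11, -1.78 to -0.48). Of these unigenes, 0 were DEUs. In this sum, 47 and 15 reads fell on 5 unigenes annotated as neurexin-4, so most of the fall rests on 1 annotation. Whether neurexin-4 is restricted to neurons here was not tested. Of the words that define the nervous tissue list, synapsin, complexin, choline acetyltransferase and tyrosine hydroxylase matched 0 unigenes. Synaptotagmin had 6 reads in C0 and 0 in C1. The hepatopancreas list (27 unigenes) had 324 and 331 RPKM, and its summed reads had a log2 ratio of 0.15 (0.05 to 0.25). This was -0.01 (-0.15 to 0.13) without Unigene8469_A0A, annotated as a carboxypeptidase N subunit. The words of this list also match protease inhibitors and lysosomal carboxypeptidases, so it is not made of digestive enzymes alone. Unigenes with trypsin in their text had 469 and 443 reads, chymotrypsin 19 and 15, and amylase 3 and 2. The epidermis list (18 unigenes) had 814 and 1641 RPKM, with 1 DEU higher, the cuticle protein Unigene20409_A0A (1939 and 3888 reads). The other 17 unigenes had 239 and 213 reads (log2 ratio -0.02, -0.29 to 0.25). The Y-organ label was met in both libraries, as Unigene19254_A0A, annotated as ecdysone biosynthesis protein, had 277318 and 259118 reads. The summed reads of the Y-organ list (6 unigenes) had a log2 ratio of 0.05 (0.04 to 0.06). Its other 5 unigenes had 446 and 782 reads (log2 ratio 0.96, 0.79 to 1.12). Among them was 1 DEU, higher in C1, Unigene1867_A0A (annotated as dib), which held 323 and 654 of these reads. The unigenes annotated as ecdysteroid receptor had 28 and 39, 45 and 43, and 48 and 41 reads. The rise of the sum thus rests mostly on 1 unigene and not on the list as a whole.

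Of the unigenes annotated as G protein subunits, receptor kinases or a regulator of G-protein signaling, 0 were DEUs. Of 13 unigenes annotated as G protein subunits, 10 had at least 10 reads, with 8 log2 ratios above 0 and 2 below. The median of the 10, 0.20, is close in size to the shift of -0.17 by the TMM factors. Both intervals of the 2 below 0 lie wholly below it. These are Unigene49250_A0A (Go alpha-like, 15 and 5 reads, -2.84 to -0.03) and Unigene20660_A0A (beta-1, 37 and 18 reads, -1.70 to -0.09). The stimulatory subunit Gs alpha (Unigene20812_A0A), which activates adenylate cyclase, had 359 reads in C0 and 371 in C1. Gq alpha (Unigene7869_A0A), which activates phospholipase C, had 411 and 428 (95% limits of the log2 ratio 0.01 and 0.40). The single unigene of a regulator of G-protein signaling, which ends G protein activity, had 79 and 49 reads (-1.05 to -0.03, adjusted p = 0.216, exact binomial test). The 4 unigenes with arrestin in their text, 3 of them arrestin domain proteins and 1 arrestin-like, had 7 and 6 reads together.

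The receptor kinases that phosphorylate active receptors are themselves members of the rule by name. Unigene44515_A0A, which matches G protein-coupled receptor kinase type 2 of the American lobster, had 54 reads in C0 and 57 in C1 (-0.31 to 0.76). Unigene49970_A0A had 23 and 22 reads, and Unigene39656_A0A had 18 and 17. The sum of these 3 was 5.66 RPKM in C0 and 6.33 in C1. Unigene2737_A0A, annotated as G protein-coupled receptor kinase interactor 1, had 18 and 5 (log2 ratio -1.60, -3.08 to -0.32, adjusted p = 0.127, exact binomial test). The first 3 kinase unigenes thus had near equal reads in both libraries, and the interactor, a scaffold protein with a different function, missed the threshold.

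**Figure D4:**
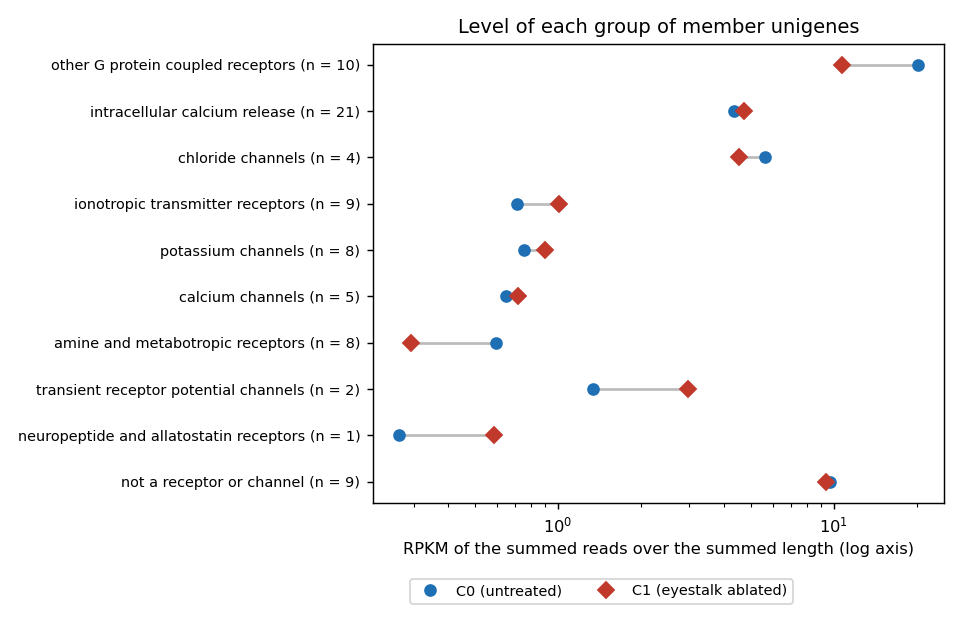
Level of each group of member unigenes in C0 (circles) and C1 (diamonds), as RPKM of the summed reads over the summed length (log axis). The number of unigenes stands after each group. The G protein coupled receptors lie highest in C0 at 20.3 and reach 10.7 in C1, and the groups for transmitters, potassium and calcium channels lie near or below 1.

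The calcium release channels were the largest group, with 21 unigenes on 3 different best hits. All 13 IP3 receptor unigenes share 1 best hit, the receptor of the spiny lobster *Panulirus argus*, so that several may be fragments of 1 transcript. They are 223 to 1586 bp long, 6863 bp in sum. Their summed level was 6.07 RPKM in C0 and 7.03 in C1 (log2 ratio 0.21, -0.09 to 0.51). Single unigenes ranged from 0.441 to 11.2 RPKM in C0, and from 0 to 16.4 in C1.

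The longest, Unigene24820_A0A (1586 bp), had 61 and 58 reads (log2 ratio 0.07, -0.44 to 0.59), which turned to -0.09 with TMM factors. Unigene13104_A0A had 27 and 25 reads. Unigene48903_A0A (553 bp) stood highest in C1, with 19 and 34 reads (log2 ratio 0.97, 0.19 to 1.79, adjusted p = 0.123, exact binomial test). Unigene1761_A0A had 11 and 15 reads (-0.50 to 1.69). All 13 intervals hold the log2 ratio of the sum, and 0 of the 13 were DEUs.

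**Figure D5:**
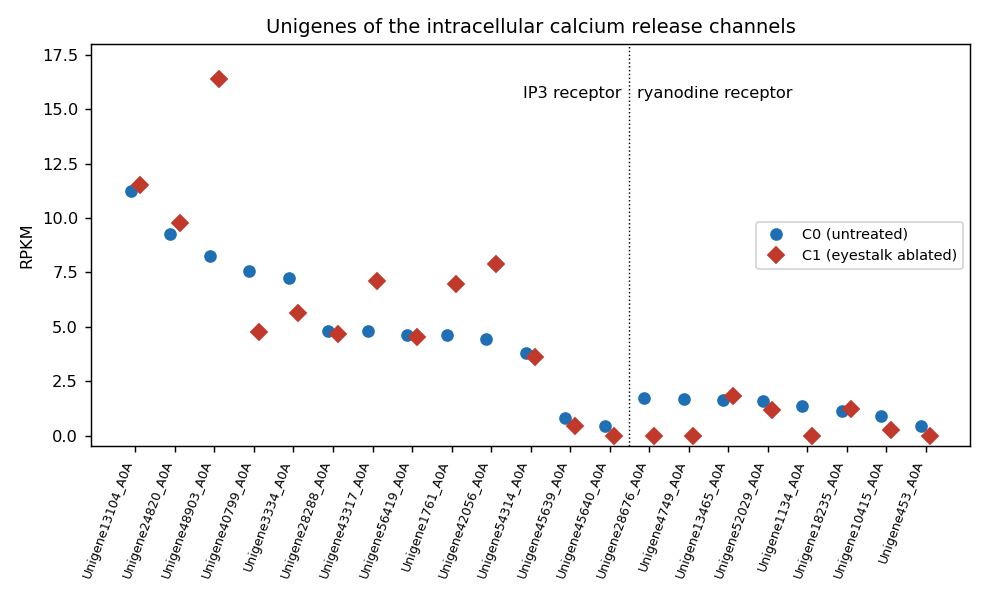
RPKM of each of the 13 IP3 receptor and 8 ryanodine receptor unigenes in C0 (circles) and C1 (diamonds), sorted by the C0 level within each family. Most IP3 receptor unigenes lie between 3 and 12 RPKM in C0, with Unigene48903_A0A at 16.4 in C1, and no ryanodine receptor unigene exceeds 1.81 RPKM in either library.

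The ryanodine receptor was much scarcer. Its 8 unigenes, 6 of them on 1 best hit from the American lobster *Homarus americanus*, had 19 reads in C0 and 7 in C1, or 1.22 and 0.497 RPKM. All 8 had reads in C0, and 4 of them had none in C1. The most reads fell on Unigene13465_A0A (3 in each library), followed by Unigene52029_A0A with 3 and 2 and Unigene10415_A0A, at 1052 bp the longest, with 4 and 1. The interval of the log2 ratio of the sum was -2.51 to -0.08, and none of the 8 had the 14 reads that a call needs. In the same libraries, reads of troponin unigenes of the muscle list numbered 4039 (C0) and 1820 (C1), those of myosin heavy chain 2425 and 2235, and arginine kinase 6274 and 8157. Of the myosin heavy chain reads, 1207 and 1423 fell on Unigene19676_A0A, which is annotated as non-muscle. Another 132 and 98 fell on Unigene9051_A0A, annotated as non-muscle-like. The part of muscle in the ryanodine receptor reads was not tested.

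Receptors for transmitters and neuropeptides were at trace levels. These 18 unigenes had 35 reads in C0 and 38 in C1 together, with at most 7 and 12 on any of them. Octopamine, the invertebrate counterpart of noradrenaline, had 1 receptor unigene, Unigene612_A0A (307 bp), with 4 reads in C0 and 0 in C1. Dopamine receptors, which are known to act on hormone release in crustaceans, had 2 unigenes with 1 read each, 1 in C0 and 1 in C1. Both unigenes match the same lobster receptor, D2AlphaHom. The 3 metabotropic glutamate receptor unigenes had 4 and 1 reads, with 2 of the C0 reads on Unigene26767_A0A, and the 2 unigenes of the GABA-B receptor had 0 and 2. At these counts no direction can be read.

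Among the ionotropic receptors, the glutamate-gated chloride channels had the most reads. This inhibitory receptor is found in invertebrates and is the target of the drug ivermectin. Its 4 unigenes had 14 C0 reads and 22 C1 reads (0.792 and 1.38 RPKM). Unigene39717_A0A (494 bp) had 5 and 12 reads (log2 ratio 1.33, -0.03 to 2.85, adjusted p = 0.350, exact binomial test), and its reads covered 36.8% of the fragment in C0 and 77.1% in C1. The longest, Unigene48636_A0A (2188 bp), had 7 and 5 reads. The interval of the first just holds 0, and that of the second, -1.91 to 1.24, lies on both sides of it.

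Nicotinic acetylcholine receptors, which carry fast excitatory signals, had 3 unigenes with 9 and 10 reads. Ionotropic glutamate receptors had 2 unigenes with 1 read each in C0 and 0 in C1. The receptor of allatostatin A, an inhibitory neuropeptide, had 1 unigene, Unigene16589_A0A (906 bp), with 1 read in C0 and 2 in C1. The genes of the peptides themselves were as scarce. Unigene26594_A0A and Unigene49707_A0A, which match 1 allatostatin precursor of a spiny lobster, had 2 and 3 reads, and 2 and 0 reads. Unigene20542_A0A, the precursor of a SIFamide peptide, had 1 read in C0 and 0 in C1.

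Potassium, calcium and TRP channels, which set and change the membrane potential or admit calcium, summed to 24 C0 reads and 28 C1 reads over 15 unigenes. No unigene of these channels had over 7 reads in a library. The 8 potassium channel unigenes had 13 and 14 reads (0.753 and 0.898 RPKM). Of these, Unigene27434_A0A (253 bp), an inward rectifier that holds the resting potential, had 7 and 2 reads (-3.74 to 0.42). Unigene13447_A0A had 3 in each library, and the 3 unigenes of the large conductance calcium-activated channel had 3 and 5 together. The 2 unigenes of two-pore domain channels, which carry leak current, had 0 and 3 reads. All these intervals hold 0.

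The 5 voltage-gated calcium channel unigenes had 8 reads in each library (0.648 and 0.718 RPKM). Unigene45191_A0A (555 bp) had most of them, with 4 and 6. Unigene13276_A0A, an L-type alpha subunit, the pore of a channel that opens on depolarization, had 2 and 0. The beta subunit, which assists the pore, had 1 unigene (Unigene39649_A0A, 1309 bp) with 1 read in each library. Of the TRP channels, Unigene47100_A0A (215 bp) had 1 and 5 reads (95% limits of the log2 ratio -0.22 and 5.16). Unigene5610_A0A, which resembles pyrexia, a heat-gated channel of *Drosophila*, had 2 and 1.

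By annotation, the chloride channels had the most reads of the plasma membrane channels, and 1 unigene held most of their 80 reads in C0 and 58 in C1. The 2 unigenes annotated as calcium activated or epithelial chloride channel had 72 and 46 of these reads, so this rank rests on them. Unigene48633_A0A (1367 bp) resembles calcium activated chloride channel 1 of a sea urchin. In mammals, proteins of this family are known as secreted regulators of chloride currents and not as pores. It had 70 reads in C0 and 42 in C1, or 12.3 and 8.19 RPKM (log2 ratio -0.58, -1.14 to -0.04, adjusted p = 0.201, exact binomial test). The E-value of its best hit, 2.08e-06, is the weakest of all members. Without it, the log2 ratio of the chloride channel sum turned from -0.31 (-0.80 to 0.17) to 0.80. The 2 unigenes of the ClC-2 chloride channel, which helps to set cell volume and resting potential, had 8 and 12 reads, of which 8 and 9 fell on Unigene45836_A0A (1389 bp).

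The most abundant unigene of the rule was no membrane receptor. Unigene19186_A0A (503 bp) matches the GABA(A) receptor-associated protein of an abalone, a ubiquitin-like protein of autophagosome formation. It had 342 C0 reads and 297 C1 reads (164 and 157 RPKM), with a log2 ratio of -0.06 (-0.28 to 0.17). It held 342 of the 1239 member reads of C0. Unigene20240_A0A (5409 bp), a sodium- and chloride-dependent GABA transporter and the longest member, had 40 and 36 reads (-0.65 to 0.64), which is 1.78 and 1.77 RPKM. Both intervals hold 0 and neither reaches a log2 ratio of -1 or 1.

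The best hits of the 77 members were 56 different proteins. Of these, 6 were shared by 27 members. A crustacean protein was the best hit of 32 members, an insect protein of 31 and one of another animal of 13. Members with an insect best hit had 528 C0 reads and 313 C1 reads, and those with a crustacean best hit 262 and 269. The insect sum includes Unigene14916_A0A (149 and 57 reads) and all methuselah-like (156 and 84) and GPR158-like unigenes (93 and 43). It thus counts the fall of these receptors again and is no separate result about the organism of the best hit. GO terms were deposited for 62 members, most often intrinsic to membrane (21), membrane (17) and divalent metal ion transport (13). Member lengths ran from 205 to 5409 bp, and their median of 484 bp lay above the 316 bp of all unigenes. Reads of near-identical fragments can be lost or split where only unique matches are counted, so the value of a single member of a family is uncertain.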

How the data were processed

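Y-organ RNA of 1 untreated (C0) and 1 eyestalk-ablated (C1) pool was sequenced as single-end reads. The authors mapped clean reads with SOAPaligner/soap2 (version not given in the sources used here) to an earlier *E. sinensis* transcriptome and deposited the count of uniquely mapped reads per unigene. They also deposited the RPKM, made from the count, the unigene length and the library total, and the coverage in percent of the unigene length. The authors' own log2 ratio, p-value and FDR score per unigene are deposited too and were not used. The counts of the table and of both sample files were equal.

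Tests were run in Python 3.11.15 with scipy 1.17.1, on tables read with pandas 2.3.3 and numpy 2.4.6. Plots used matplotlib 3.10.9. Each library size is the total over its unigenes. Log2 intervals are 95% Wilson intervals of the C1 share of reads. PCR copies are not independent molecules, so intervals and limits cover counting error only. The script was tested on simulated data. Alternatives used edgeR 4.0.16 (R 4.3.3), the median ratio, Fisher's exact test, other thresholds and minimums, and lists without single groups. Members and lists were chosen with earlier results of these data known. Members were grouped by words of their annotation, 6 of them by hand.

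Named are all DEUs, members with at least 100 reads, the 2 of each group with the most reads, and, with at least 20 reads, the 5 highest and 5 lowest log2 ratios. Further members are named to account for their family, chosen after their values were seen. Value columns without a sample numbered 0. Of the unigene identifiers, 0 are in the gene table of the RefSeq assembly ASM2467909v1, so no coordinates or sequences are given.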

Additional observations from a re-analysis of the deposited data

How the results depend on the processing

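The 2 member DEUs, Unigene14916_A0A and Unigene6976_A0A, were also called with TMM factors, with the median ratio, with Fisher's exact test, with adjustment over unigenes with at least 10 reads, and without the 9 members that are no receptor or channel, a list chosen after seeing the data. With an assumed coefficient of variation of 0.2 the count was 0, and with a log2 threshold of 2 it was 0. Leaving out ciliate best hits removed 0 members. The median log2 ratio of the members lay between -0.1829 and -0.0033 under all 7 alternatives. Of the named unigenes, Unigene24820_A0A turned to -0.0945 with TMM factors and -0.0721 with the median ratio, Unigene49970_A0A to -0.0851 and -0.0627, and Unigene13447_A0A to -0.0224 with TMM factors and 0.0000 with the median ratio. The other values of unigenes named by the rule of choice kept their direction and their side of the thresholds. Members named only to account for their family were not checked in this way. The TMM shift of -0.17 takes small positive ratios among them below 0, such as the 0.04 of Unigene13104_A0A. The log2 ratio of the chloride channels was 0.80 without the member with the most reads, and the other 38 values of summed groups stayed inside the interval of the sum. No paired analysis was possible because each group has 1 library, and for the same reason no library could be left out. Depth limits most members: 51 of 77 had fewer than the 14 reads that a call needs.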

Other observations

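Of 22 unigenes for receptors and channels outside the rule, 1 was a DEU, and most of their 4099 reads in C0 and 5169 in C1 fell on innexins, the gap junction proteins of invertebrates. Unigenes with innexin annotations did not move together. Unigene48396_A0A (innexin inx2) fell from 235 to 75 reads (log2 ratio -1.49, adjusted p = 2.65e-15 in the exact binomial test, 95% limits -1.87 and -1.13). Unigene19732_A0A, also annotated as innexin inx2 and the most abundant, had 1517 and 2146 reads (log2 ratio 0.65, 0.55 to 0.74), which stayed under the log2 threshold. Unigene18917_A0A (innexin inx1) had 655 and 948 reads (0.54 to 0.82). These unigenes were picked after their values were seen.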
